A study of Mus musculus with 8 samples.

Results

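The SLAM family of receptors and their adaptor SAP were followed through the lymph nodes that drain the brain of glioma-bearing mice. The members were 7 genes taken by name from the 32285 genes of the expression tables: the receptor genes Slamf1, Slamf6, Slamf7, Cd84, Ly9 and Cd48, and Sh2d1a, which encodes SAP. All 7 had UMIs (unique molecular identifiers, each counted as 1 RNA molecule) in every library. The gene symbols name RNA here, and no protein was measured.

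The libraries were made from live immune cells sorted by FACS out of deep cervical lymph nodes of C57BL/6 mice, taken at day 20 after an injection into the brain. Mice of the saline control library received DPBS. Mice of the other libraries received GL261 cells, a mouse glioma line of the same strain. Of the mice with glioma, some were given isotype IgG (the isotype library) and others anti-CTLA-4 antibody (the anti-CTLA-4 library), which blocks an inhibitory receptor of T cells. The depleted isotype library and its anti-CTLA-4 counterpart came from mice with glioma that were also given anti-CD20, an antibody that removes B cells. With a single expression library in each group there were no replicates, and differences were not tested. Intervals are exact 95% intervals and cover counting error only. How many mice were pooled in a library, and whether the saline mice were given isotype IgG, is not given in the sources used here.

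SLAM family receptors are surface proteins of the immunoglobulin superfamily found on lymphocytes and other blood cells. Most of them bind the same receptor on a neighbouring cell, while CD48 is the ligand of CD244, and in mice also binds CD2. The cytoplasmic tails of most members hold tyrosine motifs that bind the small adaptor SAP, which recruits the kinase FYN, or, in its absence, phosphatases such as SHP-1, SHP-2 and SHIP-1. SAP in T cells is known for its role in T cell help to germinal centre B cells, the dividing cells that mutate and switch their antibodies, and mutations of its human gene cause an inherited immune deficiency.

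The 6 receptor genes lie side by side on chromosome 1, within 360 kb (chr1:171588613-171948958, mm10), and Sh2d1a lies on the X chromosome (chrX:42502565-42522097). In the order along chromosome 1 they are Ly9 (chr1:171588613-171607410), Slamf7 (chr1:171632403-171653037), Cd48 (chr1:171681245-171705258), Slamf1 (chr1:171767131-171801184), Cd84 (chr1:171839697-171890718) and Slamf6 (chr1:171917458-171948958), per the RefSeq gene table of GRCm38.p6. Cd244a, which encodes the CD48 receptor, ends next to Ly9 (chr1:171558718-171585316). The promoter table of RefSeq, on the same build, matched 5 of the 7 members, Ly9 and Sh2d1a having no entry. The 250 bases before the listed start are shown for Slamf7 and Cd84, members of the chromosome 1 group. Their levels, as shares of all UMIs of the cells, differed in opposite directions between follicular and germinal centre B cells. The pair was chosen after those levels were seen. The Slamf7 window (chr1:171649000-171649249, minus strand) lies inside the gene record, since the listed start is not the outermost one. The Cd84 window (chr1:171839447-171839696, plus strand) ends at the base before the gene record.
Slamf7: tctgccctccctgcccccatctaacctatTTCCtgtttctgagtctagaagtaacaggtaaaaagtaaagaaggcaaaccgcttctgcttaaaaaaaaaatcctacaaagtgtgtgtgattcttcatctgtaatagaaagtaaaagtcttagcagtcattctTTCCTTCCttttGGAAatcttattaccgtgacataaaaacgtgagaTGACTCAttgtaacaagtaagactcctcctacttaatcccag
Cd84: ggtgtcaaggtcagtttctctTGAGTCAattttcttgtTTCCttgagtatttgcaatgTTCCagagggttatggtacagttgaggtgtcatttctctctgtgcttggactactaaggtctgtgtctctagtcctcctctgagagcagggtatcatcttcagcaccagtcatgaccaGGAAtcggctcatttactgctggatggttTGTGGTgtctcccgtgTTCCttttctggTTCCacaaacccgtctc
Capitals mark the ETS core GGAA, the AP-1 site TGANTCA and the Runx site TGTGGT, searched on both strands, so that TTCC and ACCACA count too. The Slamf7 window held 4 ETS matches and 1 AP-1 match, and the Cd84 window held 5 ETS matches, 1 AP-1 match and 1 Runx match. The GGAA core was present in 93.4% of the 32544 promoters of the table, TGTGGT in 14.0% and TGANTCA in 6.73%. Of the 5 members searched, 4 held GGAA and 2 each held TGANTCA and TGTGGT. The E-box CANNTG, which is not capitalised, was present in all 5 members and in 66.2% of promoters, and the octamer ATGCAAAT in none of the 5 and in 1.62% of promoters. A match is a description of letters and no measurement of binding.

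The tables held between 9014 and 11791 barcodes and between 54715065 and 63497466 UMIs per library, and 8305 to 10601 cells were kept. Median depth per kept cell was 4266 to 4680 UMIs in the libraries with B cells and 5889 and 6002.5 in the depleted ones. The median mitochondrial share of UMIs was 1.00% in the isotype library and 1.77% to 2.09% in the others. Pairs of libraries shared 109 to 164 barcodes, at most 1.70% of the smaller library. Cells were grouped into classes from clusters made without the 7 members and without a list of 13 pathway genes, and classes were named from fixed marker genes. Values of 5 libraries are given in the order saline control, isotype and anti-CTLA-4, then the depleted isotype and the depleted anti-CTLA-4 library. Follicular B-like cells numbered 3858, 3733, 4454, 15 and 23, and germinal centre B-like cells 28, 81, 175, 25 and 38. A level is given as CPM, the UMIs of a gene per 1000000 UMIs of its class in a library. Since clusters were built from the same cells' other genes, levels by class are a description, with no test. In class sums, fewer cells with the gene and less RNA per cell cannot be told apart.

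**Figure D1:**
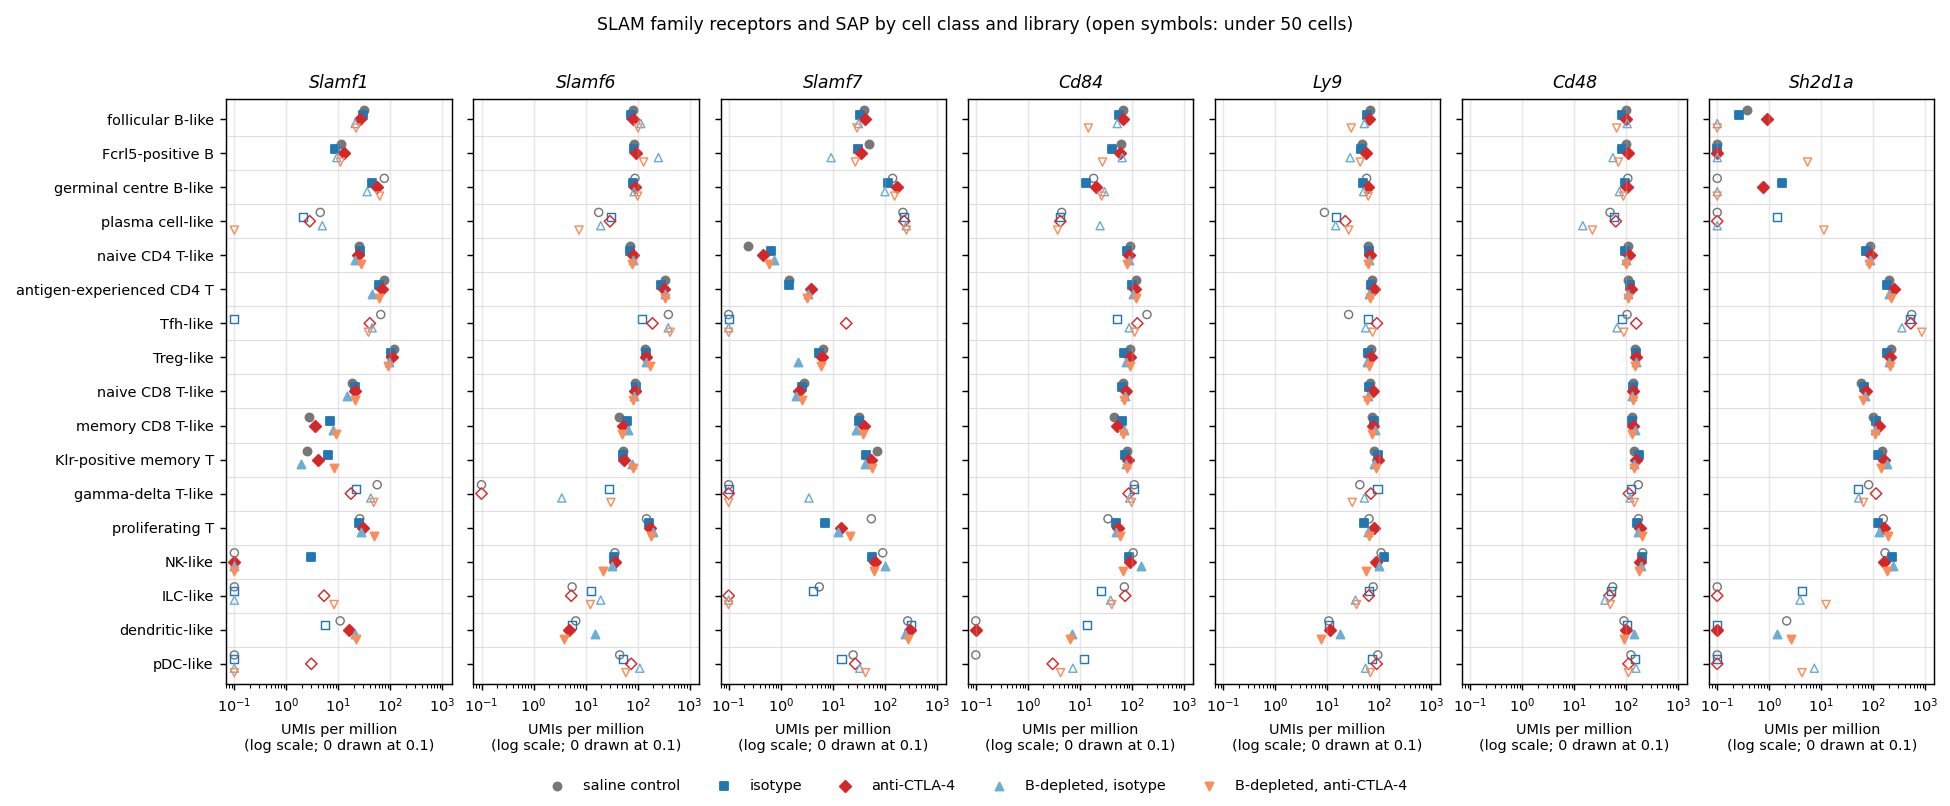
Level of each member (CPM, UMIs per 1000000, log scale, 0 drawn at 0.1) in 17 cell classes, 1 symbol per library, open where the class had under 50 cells in that library. Sh2d1a sits at 59.2 to 860 in T cell classes outside the gamma-delta T-like cells and at 0 to 1.74 in follicular and germinal centre B-like cells, and Slamf7 runs from 0.24 to 0.76 in naive CD4 T-like cells to 42.7 to 70.7 in Klr-positive memory T cells.

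Slamf1, also called CD150 and the founding member of the family, was highest in regulatory T cells, named Treg-like here from Foxp3 and related markers. In Treg-like cells Slamf1 stood at 119, 103, 110, 92.4 and 90.6 CPM. In antigen-experienced CD4 T cells it stood at 76.9, 61.1, 67.6, 45.0 and 61.3, and in naive CD4 T-like cells at 24.4, 25.7, 24.3, 20.6 and 27.3. The ranges of these 3 classes did not overlap, and the ratio of Treg-like to naive CD4 T-like cells lay between 3.32 and 4.88, with every interval above 1. Memory CD8 T-like cells held 2.70, 6.87, 3.60, 7.99 and 8.87, against 18.6 to 21.2 in naive CD8 T-like cells of the libraries other than depleted isotype, where naive cells held 14.8. Memory cells were below naive cells in all 5 libraries, by a ratio of 0.145 to 0.538. NK-like cells gave 1 Slamf1 UMI over all libraries, in the isotype library.

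Slamf6, or Ly108, a receptor that many progenitor-like and helper T cells carry, was highest in antigen-experienced CD4 T cells among classes with at least 50 cells. Antigen-experienced CD4 T cells held 340, 284, 328, 340 and 336 CPM, and naive CD4 T-like cells 70.4, 72.4, 80.8, 83.0 and 76.8. The groups did not overlap, and the ratio was 3.92 to 4.84. Treg-like cells, at 137 to 172, lay between them, and proliferating T cells, at 170 to 197 in the 4 libraries with at least 50 of them, overlapped with the Treg-like range. The antigen-experienced CD4 T class was mixed. Its clusters with at least 50 cells, pooled over libraries, ran from 138, within the Treg-like range, to 544. In the 13 to 46 Tfh-like cells per library Slamf6 varied from 121 to 423, with isotype and anti-CTLA-4 at 121 and 193 and the other libraries at 390 to 423. Memory CD8 T-like cells were lower than naive CD8 T-like cells in each library, with a ratio of 0.495 to 0.747. Gamma-delta T-like cells, ILC-like cells and dendritic-like cells held at most 30.8.

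Slamf7, also called CRACC or CS1, is a receptor of NK cells, plasma cells and activated lymphocytes and an antibody target in human myeloma. It was at 277, 324, 310, 249 and 287 CPM in dendritic-like cells and at 224, 232, 238, 260 and 263 in plasma cell-like cells, of which a library held 5 to 43. Germinal centre B-like cells followed at 142, 115, 172, 101 and 155, then NK-like cells at 91.6, 56.4, 66.6, 101 and 63.6. Over classes with at least 50 cells the dendritic-like, germinal centre and NK-like ranges did not overlap, while NK-like and Klr-positive memory T cells, at 42.7 to 70.7, did. Within CD8 T cells memory and naive cells did not overlap. Memory CD8 T-like cells held 32.4, 32.5, 39.6, 27.7 and 37.5 against 2.80, 2.53, 2.26, 2.01 and 2.55 in naive CD8 T-like cells, a ratio of 11.5 to 17.5. Antigen-experienced CD4 T cells held 1.42, 1.42, 3.81, 3.42 and 3.25, a range that overlapped with that of naive CD8 T-like cells. Naive CD4 T-like cells were lowest of the classes with at least 50 cells in every library, at 0.24 to 0.76. Proliferating T cells of the saline control library, 33 in number, stood at 55.5 and those of the other libraries at 7.24 to 21.4.

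Cd84, a homophilic receptor involved in the contact between T and B cells, had its highest mean among classes with at least 50 cells in antigen-experienced CD4 T cells (118, 99.5, 115, 104 and 118). The fewer Tfh-like cells held 196, 52.9, 128, 89.1 and 113, on both sides of that range. It was low in dendritic-like cells (0, 13.9, 0, 7.00 and 6.49) and, outside the depleted isotype library with its 5 cells, in plasma cell-like cells (3.75 to 4.48). Ly9, or CD229, was at 110, 125, 87.8, 101 and 55.7 in NK-like cells. Among classes with at least 50 cells its ranges overlapped between neighbours in the order down to Fcrl5-positive B cells. Plasma cell-like and dendritic-like cells lay below, at 8.95 to 26.3 and 7.79 to 18.2. Cd48, a lipid-anchored ligand, was at 209, 202, 182, 193 and 181 in NK-like cells, at 145 to 158 in Treg-like cells and at 95.8 to 112 in naive CD4 T-like cells. The Treg-like to naive CD4 T-like ratio of Cd48 was 1.37 to 1.62, above 1 in all 5 libraries, whereas those of Cd84 (0.865 to 1.11) and Ly9 (0.921 to 1.15) fell on both sides of 1.

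Sh2d1a, the SAP gene, was read in T and NK cells and hardly in B cells. Over all T cells it stood at 94.9, 93.3, 113, 100 and 102 CPM, and over B cells (follicular, Fcrl5-positive and germinal centre) at 0.34, 0.38, 0.82, 0 and 1.35. T cells with at least 1 UMI made up 36.5%, 35.8%, 37.0%, 38.6% and 39.0%, at median depths of 5759, 5772, 5120, 5896 and 6028 UMIs per cell. Among B cells the shares were 0.149%, 0.127%, 0.354%, 0% and 1.22% at median depths of 3932, 3833, 3538, 7778 and 7371.5. Whether these few UMIs are background was not tested. Plasma cell-like cells, not part of the B cell sum, gave 2 UMIs in the isotype library (1.40 CPM, 43 cells). In the depleted anti-CTLA-4 library they gave 3 (11.3 CPM, 9 cells), and in the others 0. The depleted libraries held only 57 and 82 B cells, and 0 of 57 in the depleted isotype library allows a share of cells with a UMI of up to 5.26%, which is 3 of the 57 cells. With every cell thinned to 2000 UMIs the T cell shares were 17.1%, 14.9%, 18.1%, 16.2% and 16.2% and the B cell shares 0.0786%, 0.107%, 0.202%, 0% and 0%. Thinning left out 87 to 118 T cells per library, and 196, 199, 337, 0 and 1 B cells.

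Among T cells the Sh2d1a level was highest in Tfh-like cells in each library. These cells, of which there were 15, 14, 46, 13 and 19, held 548, 506, 526, 356 and 860 CPM. They exceeded the antigen-experienced CD4 T cells of the same library (204, 186, 251, 203 and 220) by a ratio of 1.76 to 3.91, with the interval above 1 in 5 of 5. Treg-like cells, at 223, 187, 209, 201 and 212, could not be told from antigen-experienced CD4 T cells by their ranges. Both were above naive CD4 T-like cells, at 85.3, 71.1, 89.2, 88.5 and 84.1, with ratios of 2.27 to 2.63 and 2.29 to 2.81. Memory CD8 T-like cells were above naive CD8 T-like cells by 1.54 to 1.79. NK-like cells held 169, 226, 163, 236 and 183, and ILC-like cells, innate lymphocytes without these NK markers, 0 to 12.4.

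From follicular to germinal centre B-like cells the CPM of the receptors went different ways. In the 3 libraries with B cells Slamf7 was at 39.6, 34.1 and 42.2 CPM in follicular cells and at 142, 115 and 172 in germinal centre cells, a ratio of 3.36 to 4.08. Slamf1 was also higher in germinal centre cells (76.4, 44.2 and 56.5 against 30.8, 30.2 and 26.4), by 1.46 to 2.48. Cd84 was lower, at 18.4, 13.4 and 20.8 against 69.1, 56.8 and 69.1, a ratio of 0.236 to 0.301. For these 3 genes the groups did not overlap and every interval lay on 1 side of 1. Slamf6 (1.06 to 1.10), Cd48 (1.05 to 1.15) and Ly9 (0.854 to 0.959) had intervals that included 1 in all 3 libraries. The germinal centre cells of the saline control library numbered 28. CPM is a share of all UMIs, and the germinal centre cluster had a median of 13044 UMIs per cell. Medians of the follicular clusters were 1994 to 5167. Cd84 gave 7, 23 and 55 UMIs in 28, 81 and 175 germinal centre cells. Follicular cells gave 1124, 877 and 1169 Cd84 UMIs in 3858, 3733 and 4454 cells. The lower Cd84 CPM thus does not show fewer Cd84 UMIs per cell, and a ratio near 1 does not show equal UMIs per cell.

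In plasma cell-like cells Slamf7 was the member whose CPM stayed high. Against germinal centre cells of the same library its ratio was 1.38 to 2.57, above 1 with its interval in 5 of 5 libraries, although the saline and depleted libraries held only 7, 5 and 9 plasma cell-like cells. In those 3 libraries 1 cell gave 28.0%, 32.1% and 28.6% of the Slamf7 UMIs. The CPM of Slamf6 was lower in plasma cell-like than in germinal centre cells in 5 of 5 libraries (0.0747 to 0.374), as was that of Cd48 (0.198 to 0.614). Slamf1 gave 0 to 3 UMIs in the plasma cell-like cells of any library. Where it gave any, its ratio was 0.0476 to 0.137. Plasma cell-like cells had a median of 32614 UMIs and germinal centre cells 13044, so that a lower CPM need not mean fewer UMIs per cell. Cd48 gave 11, 84, 45, 3 and 6 UMIs in 7, 43, 25, 5 and 9 plasma cell-like cells. Germinal centre cells gave 41, 166, 272, 25 and 37 Cd48 UMIs in 28, 81, 175, 25 and 38 cells.

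**Figure D2:**
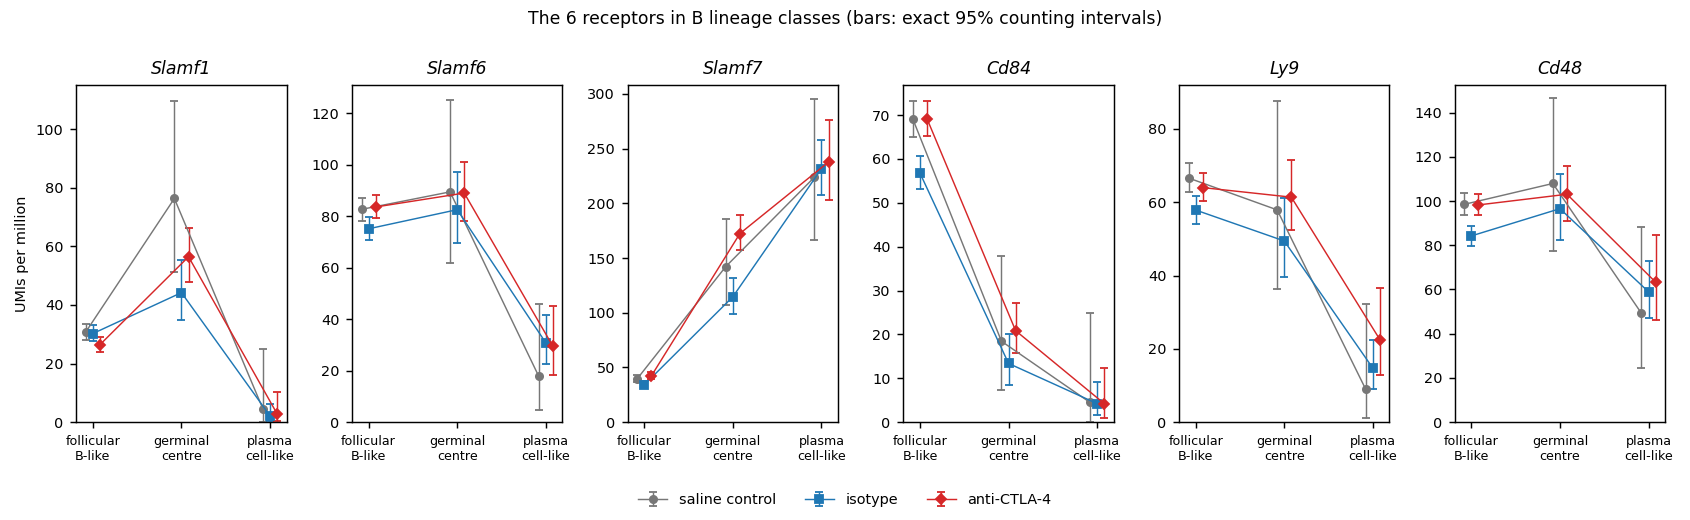
Level (CPM, linear axis) of the 6 receptors in B-like cells of follicles and germinal centres and in plasma cell-like cells of the 3 libraries with B cells, with exact 95% counting intervals. Slamf7 lies at 34.1 to 42.2 in follicular, 115 to 172 in germinal centre and 224 to 238 in plasma cell-like cells, while Cd84 lies at 56.8 to 69.1, 13.4 to 20.8 and 4.21 to 4.48.

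Germinal centre B-like cells were also divided by the constant gene of the heavy chain in the B cell receptor libraries, since IgM and IgD are the classes before switching and IgG1 a class after it. Slamf7 was at 199 CPM in the 62 IgG1 cells and 144 in the 55 IgM or IgD cells of the anti-CTLA-4 library, a ratio of 1.38 (1.11 to 1.72). In the isotype library it was at 224 in 8 IgG1 cells and 82.0 in 36 IgM or IgD cells, a ratio of 2.73 (1.90 to 3.91). Slamf1 was likewise higher in IgG1 cells, at 71.2 against 43.7 (1.63, 1.10 to 2.42) and 110 against 24.5 (4.49, 2.48 to 8.20). In both libraries IgG1 cells were thus above IgM or IgD cells in CPM for both genes, with intervals above 1. In the anti-CTLA-4 library Slamf7 gave 187 UMIs in the 62 IgG1 and 155 in the 55 IgM or IgD cells. In the isotype library it gave 55 in the 8 and 77 in the 36. The part of total UMIs per cell in these ratios was not tested. Cells of other IgG classes, 11 under isotype and 6 under anti-CTLA-4, held Slamf7 at 97.8 (63.3 to 144) and 184 (111 to 287). In the isotype library they lay close to IgM or IgD cells and below IgG1 cells. In the anti-CTLA-4 library their interval took in the levels of both. In the saline control library 9 cells of other IgG classes held Slamf7 at 197 (134 to 280). The 9 IgM or IgD cells there held 66.8 (32.0 to 123), so that higher Slamf7 was not limited to IgG1. Cd84 was at 15.9 in IgG1 and 25.1 in IgM or IgD cells of the anti-CTLA-4 library. Its ratio of 0.634 (0.314 to 1.24) was not distinguishable from 1 at this depth. Slamf6 ratios were 0.974 (0.723 to 1.31) and 1.10 (0.643 to 1.81). These ratios were chosen after the levels were seen.

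**Figure D3:**
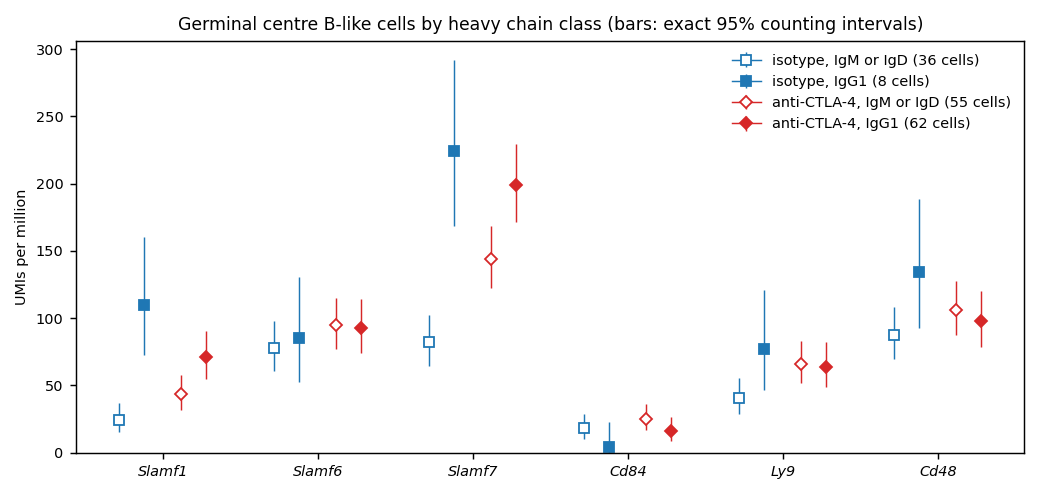
Level (CPM) of the 6 receptors in germinal centre B-like cells by library and heavy chain class, with exact 95% counting intervals. For Slamf7 the filled IgG1 symbols sit at 224 and 199, above the open IgM or IgD symbols at 82.0 and 144, while the 4 Slamf6 symbols lie together between 77.7 and 94.9.

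The Treg-like class held 2 clusters, named here only by a leading gene, and Sh2d1a and Slamf6 differed between them. The cluster led by Ccr8, a chemokine receptor of activated Treg cells, had 260, 229, 354, 359 and 492 cells, and the cluster led by Lrrc32, which encodes a surface protein that binds latent TGF-beta, had 127, 159, 189, 270 and 230. Sh2d1a was at 266, 241, 277, 263 and 256 CPM in the Ccr8-led and at between 63.6 (anti-CTLA-4) and 129 (saline control) in the Lrrc32-led cells, a ratio of 2.06 to 4.35. Slamf6 was at 169, 177, 179, 176 and 204 against 63.5, 89.5, 72.2, 90.6 and 81.1, a ratio of 1.95 to 2.67. For both genes the clusters did not overlap in any pair of libraries. Slamf1, which had its own highest level in the Treg-like class, was at 87.5 to 128 in the first and 99.4 to 105 in the second. Its ratios lay on both sides of 1 (0.880 to 1.28).

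NK-like cells likewise fell into a Klrb1c-led cluster (15, 22, 24, 28 and 37 cells) and a Gzmb-led cluster (25, 31, 29, 25 and 28 cells). Sh2d1a was at 281, 244, 239, 372 and 260 CPM in the first and 104, 213, 103, 75.1 and 116 in the second. Cd84 was at 141, 111, 116, 207 and 106 against 86.6, 74.4, 76.0, 81.4 and 33.6. The Klrb1c-led cells were higher in 5 of 5 libraries for both, with ratios of 1.14 to 4.96 and 1.49 to 3.17. The smallest Sh2d1a ratio was in the isotype library, the only one where its interval included 1 (0.704 to 1.84). For Cd84 the interval was above 1 only in the depleted isotype (1.33 to 5.20) and depleted anti-CTLA-4 library (1.43 to 7.71). In the other libraries it included 1. The gene names only label the clusters. Gzma was the first leading gene of both NK clusters, and both carried other NK genes. The cluster pairs were picked after the levels by class were seen.

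**Figure D4:**
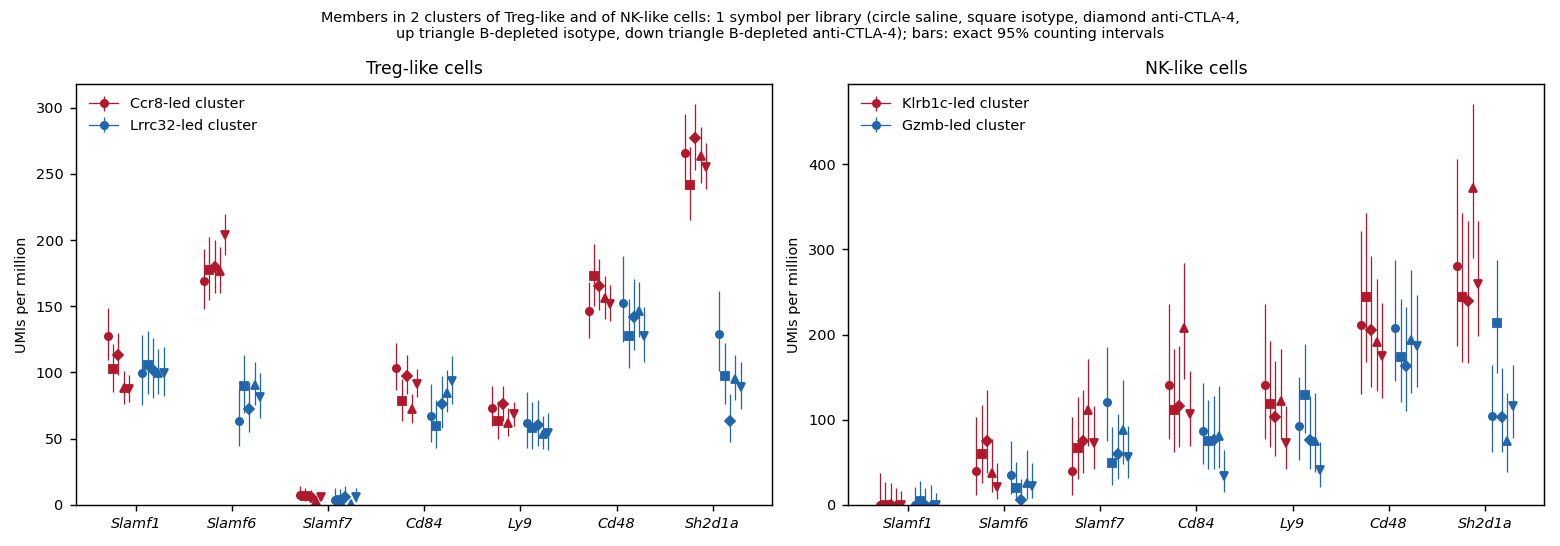
Level (CPM) of the 7 members in the clusters of the Treg-like class (left) and of the NK-like class (right), 1 symbol per library with exact 95% counting intervals. The Sh2d1a symbols of Ccr8-led cells lie at 241 to 277 and those of Lrrc32-led cells at 63.6 to 129, while the Slamf1 symbols of the 2 clusters lie together at 87.5 to 128.

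Of the 13 pathway genes, those for ligands and relatives of the receptors kept to few classes. Cd244a, the CD48 receptor, was at 161, 95.1, 115, 112 and 101 CPM in NK-like cells and at 3.49 to 4.36 in follicular B-like cells of the 3 libraries with B cells. Slamf8, a family member of myeloid cells, was at 51.9, 61.4, 39.1, 64.4 and 42.8 in dendritic-like cells and at 0 in NK-like, naive CD4 T-like and germinal centre B-like cells. Slamf9 was at 169, 163, 148, 158 and 154 in plasmacytoid dendritic cells (pDC-like, 22 to 33 cells) and at 0 in NK-like cells.

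Sh2d1b1, which encodes EAT-2, an adaptor related to SAP, was at 7.33, 20.8, 12.1, 31.6 and 29.8 in NK-like cells. Germinal centre B-like cells gave 4, 12, 15, 1 and 4 Sh2d1b1 UMIs, or 10.5, 6.98, 5.68, 2.98 and 9.56 CPM. Follicular B-like cells, many times more numerous in the 3 libraries with B cells, gave 1 UMI in each of them. The phosphatase genes Ptpn6 (SHP-1) and Inpp5d (SHIP-1) were at 498 to 588 and 428 to 480 in follicular B-like cells and at 109 to 163 and 87.3 to 96.6 in naive CD4 T-like cells. The kinase genes Lck, at 564 to 646, and Prkcq, at 276 to 295, were higher in naive CD4 T-like than in follicular B-like cells, which held 30.8 to 36.1 and 0.91 to 1.72. Fyn, the kinase that SAP recruits, was at 230 to 275 in naive CD4 T-like and 138 to 164 in follicular B-like cells. None of these ranges overlapped between the T and the B class.

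Glioma with isotype IgG was set against saline control first. A ratio was called where it reached 1.5-fold in either direction with at least 50 UMIs over both libraries, in classes with at least 50 cells in each. Of 48 member ratios in 8 classes 2 were called, against 5.85% of all gene ratios. The median log2 ratio was -0.06 for the members and -0.04 for all genes. Slamf7 was lower in Fcrl5-positive B cells, at 30.5 against 51.0 CPM (0.599, 0.374 to 0.944), and in Klr-positive memory T cells, at 43.1 against 70.7 (0.610, 0.386 to 0.951). In follicular B-like cells, the class with the most UMIs, the ratios were smaller than the called size: Cd84 0.822, Cd48 0.855, Slamf7 0.862, Ly9 0.869 and Slamf6 0.909, with all 5 intervals below 1, and Slamf1 0.982. The isotype library, which had the lowest mitochondrial share, held the lowest level of 6 of the 7 members in that class among the 3 libraries with B cells, and the part of the library itself in this was not tested. Of 63 pathway ratios 4 were called: Fyn in Fcrl5-positive B cells was higher (1.62), and Lck there (0.579), Slamf9 in follicular B-like cells (0.656) and Ptpn11 in memory CD8 T-like cells (0.647) were lower.

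In mice with glioma and without B cell depletion, anti-CTLA-4 against isotype gave 3 called member ratios of 63, all higher, against 7.5% of all gene ratios. The median log2 ratio was 0.15 for the members and 0.07 for all genes. Slamf7 in germinal centre B-like cells was at 172 against 115 CPM, a ratio of 1.5 (1.27 to 1.79), and Cd84 there at 20.8 against 13.4 (1.56, 0.942 to 2.66), in a class where 11.6% of gene ratios were called. The Slamf7 ratio only just reached the called size, and all genes of this class had a median log2 ratio of 0.08. With median-ratio size factors, which take out such a shift, the 3 calls of this comparison became 1. Within IgM or IgD cells the Slamf7 ratio was 1.76 (1.33 to 2.34) and within IgG1 cells 0.887 (0.653 to 1.22). IgG1 cells were 62 of 175 germinal centre cells under anti-CTLA-4 and 8 of 81 under isotype. Slamf7 gave 455 UMIs in the 175 cells and 197 in the 81, so that UMIs per cell differed less than CPM. The part of total UMIs per cell in the ratio was not tested. The class's own 9 germinal centre markers summed to 2433 CPM under anti-CTLA-4 and 1462 under isotype, and the 5 B lineage markers to 4765 and 3925. The 8 plasma cell markers summed to 1670 and 1275, the 4 proliferation markers to 2799 and 2377 and the 5 T cell markers to 64.4 and 58.2. Germinal centre markers were thus also higher under anti-CTLA-4, and their part in the Slamf7 ratio was not tested. Without the 17 and 6 cells that held a Cd3d, Cd3e or Cd3g UMI the ratio was 1.53 (1.28 to 1.83) for Slamf7 and 1.36 (0.791 to 2.42), under the called size, for Cd84. Ly9 in proliferating T cells was at 81.1 against 51.5 (1.57, 1.15 to 2.17), where 20.5% of gene ratios were called. B lineage markers summed to 120 and 225 in those cells, and their part in the result was not tested. In follicular B-like cells the ratios ran from 0.875 for Slamf1 (0.766 to 0.998) to 1.24 for Slamf7. Of 86 pathway ratios 1 was called, Ptpn6 in NK-like cells (1.64, 0.949 to 2.89).

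B cell depletion was compared under each antibody, in T and NK classes, and under anti-CTLA-4 also in dendritic-like cells. Under isotype 2 of 48 member ratios were called, both higher, against 7.22% of all gene ratios, with median log2 ratios of 0.05 for members and 0.03 for all genes. Both lay in NK-like cells, 53 in each library, where 12.3% of gene ratios were called: Cd84 at 150 against 89.1 (1.68, 1.05 to 2.72) and Slamf7 at 101 against 56.4 (1.78, 0.992 to 3.30). Cd84 was at 207 against 111 in the Klrb1c-led cells, 28 and 22 of the 53, and at 81.4 against 74.4 in the Gzmb-led cells, so that most of the difference lay in the first cluster. B lineage markers summed to 2.88 CPM in the depleted and 53.5 in the other NK-like cells, and their part was not tested. Slamf1 was lower in the depleted library in naive CD4 T-like (0.799, 0.670 to 0.956) and naive CD8 T-like cells (0.708, 0.588 to 0.854), without reaching the called size. Under anti-CTLA-4 4 of 51 were called, against 5.88% of all gene ratios, with medians of -0.08 and -0.02. Slamf6 in Klr-positive memory T cells was higher (1.51, 1.04 to 2.24), as were Slamf1 (1.62, 1.11 to 2.39) and Slamf7 (1.51, 0.857 to 2.72) in proliferating T cells, and Ly9 was lower in NK-like cells (0.634, 0.363 to 1.10). B lineage markers in proliferating T cells summed to 13.7 in the depleted and 120 in the other library, and their part was not tested. Of the pathway ratios 5 of 65 were called with isotype and 2 of 71 with anti-CTLA-4. They were Cd244a in naive CD4 T-like (2.45) and naive CD8 T-like cells (1.76) and Ptpn11 in memory CD8 T-like (1.53), Klr-positive memory T (1.59) and proliferating T cells (0.638), then Ptpn11 in NK-like (1.87) and Fyn in dendritic-like cells (0.665).

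Between the depleted libraries, anti-CTLA-4 against isotype, 6 of 52 member ratios were called, 2 higher and 4 lower, against 5.3% of all gene ratios. The median log2 ratio was 0.03 for the members and 0.02 for all genes. Proliferating T cells held more Slamf1, at 48.3 against 27.0 CPM (1.79, 1.28 to 2.51), and more Slamf7, at 21.4 against 12.4 (1.72, 1.04 to 2.89). Slamf1 was also above 1 in naive CD4 T-like (1.33, 1.15 to 1.53), naive CD8 T-like (1.43, 1.22 to 1.67) and antigen-experienced CD4 T cells (1.36, 1.01 to 1.84), and at 0.980 (0.846 to 1.14) in Treg-like cells. The depleted isotype library held the lowest Slamf1 level of the 5 libraries in the first 3 of these classes. NK-like cells, 65 against 53, where 12.2% of gene ratios were called, held less Cd84 (0.452, 0.284 to 0.710), Ly9 (0.553, 0.324 to 0.936) and Slamf7 (0.632, 0.379 to 1.05). Cd84 was lower in both NK clusters, at 106 against 207 in Klrb1c-led and 33.6 against 81.4 in Gzmb-led cells. Proliferation markers summed to 684 and 86.3 CPM in these NK-like cells, and their part was not tested.

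Cd48 in dendritic-like cells was at 89.6 against 141 in the same comparison (0.634, 0.460 to 0.869), where 17.4% of gene ratios were called. A cluster with Cxcl9 among its leading genes, called Cxcl9-led here, made up 9 of 89 and 20 of 75 of these cells. In it Cd48 was at 163 and 195. The other cells, pooled, came from clusters with Fscn1 among their leading genes, and in them Cd48 was at 67.5 against 94.4. A small cluster of this pool, with Lyz2 as its first leading gene, held 13 cells with anti-CTLA-4 and 2 with isotype. The level was lower in the pool and in the Cxcl9-led cluster, there on 9 and 20 cells. The Cxcl9-led cluster, with the higher level, was also a smaller share. The part of this mix of clusters in the ratio was not tested. Of 72 pathway ratios 5 were called: Vav1 in NK-like cells was higher (1.80), and Cd244a in naive CD4 T-like cells (0.504) and Slamf8 (0.666), Fyn (0.542) and Inpp5d (0.661) in dendritic-like cells were lower. Comparisons that share a library are not independent: the NK-like cells of the depleted isotype library, for instance, enter with their high Cd84 in both comparisons that use them.

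**Figure D5:**
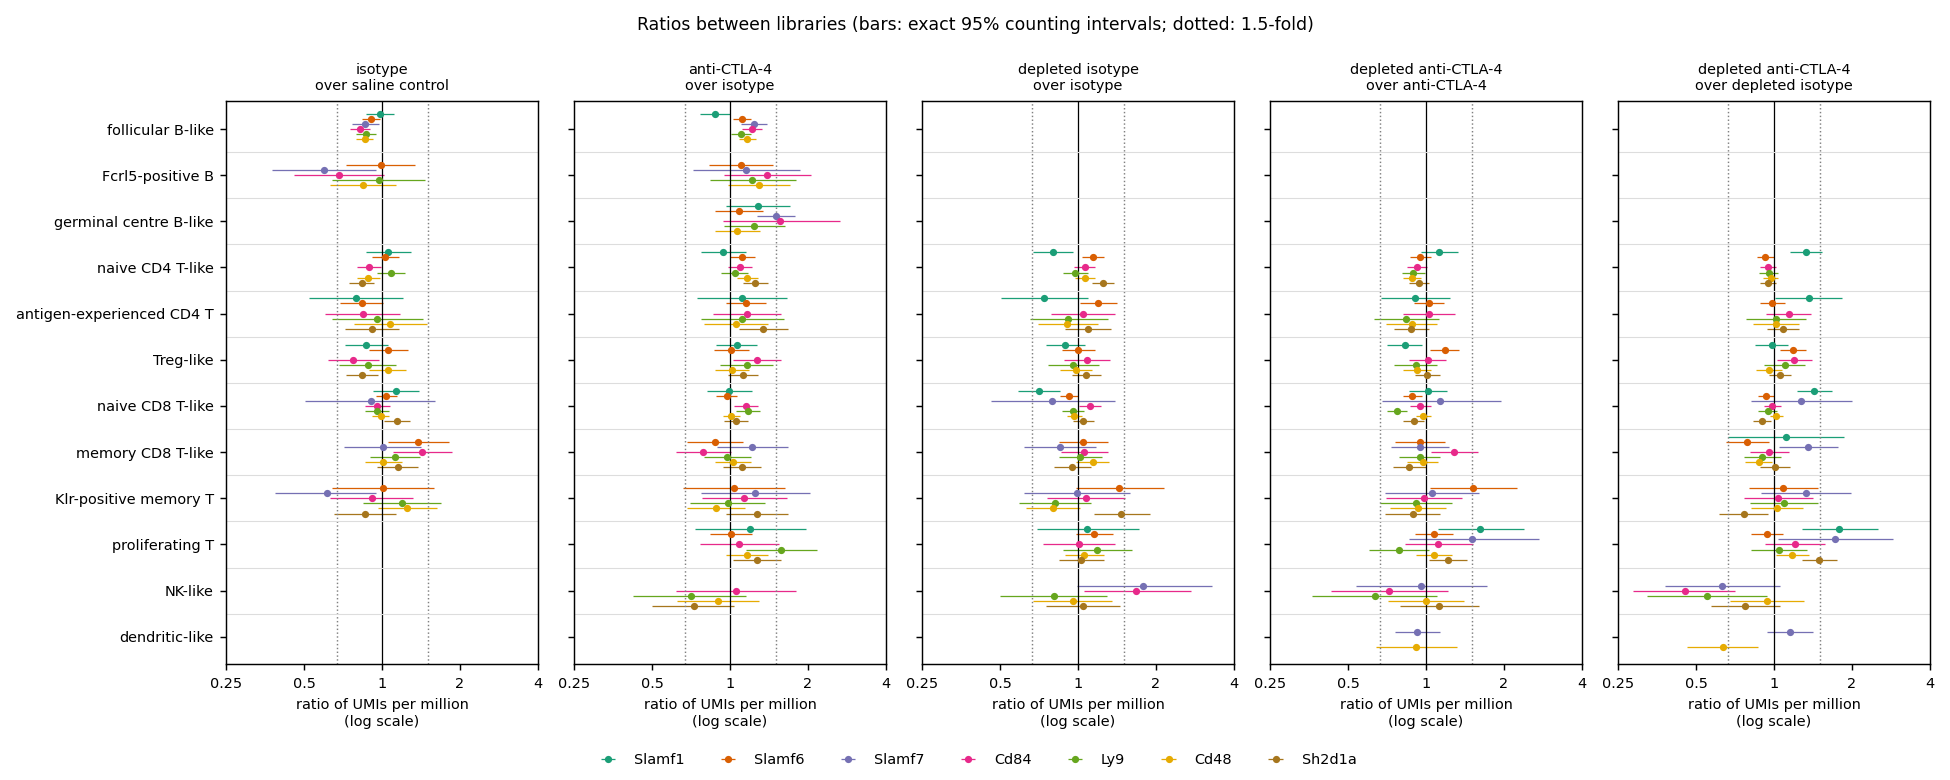
Ratio of levels between libraries (log axis) for each member with at least 50 UMIs, by class and comparison, with exact 95% counting intervals and dotted lines at 1.5-fold. Most points lie between the dotted lines, and the points past them sit in germinal centre, Fcrl5-positive, Klr-positive memory, proliferating, NK-like and dendritic-like cells, the smaller classes.

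Likeness of pattern was described over 17 classes, by Pearson's r of log2(CPM + 10) among 9442 genes with at least 1000 UMIs. Sh2d1a was most like Cd247 (r = 0.945), Lck (0.934) and Cd27 (0.927). Cd84 was most like Gimap3 (0.958), Gimap8 (0.953) and Zdhhc18 (0.942), and Ly9 most like Sept1 (0.926), Panx1 (0.921) and Rac2 (0.917). Slamf6 came closest to Trnt1 (0.923), Mpp1 (0.910) and Zfp330 (0.910), and Cd48 to Zmat5 (0.905), Nup210 (0.853) and Xrn2 (0.843). Slamf1 and Slamf7 had weaker matches, Naa16 (0.847), Plekhg2 (0.814) and Dap3 (0.813) for the first and Dusp22 (0.833), Zfp296 (0.804) and Cptp (0.784) for the second. Among the members themselves Cd84 and Sh2d1a were most alike (Pearson 0.769, Spearman 0.735), and Slamf7 and Cd84 least alike (-0.707 and -0.498). The classes share libraries and some hold few cells, so these values carry no p-value.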

How the data were processed

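Per the labels' protocols, RNA of single sorted immune cells was captured with 10x Genomics 5' V2 kits in 5 expression libraries. The deposited matrices are counts of UMIs for each gene in each barcode. They name Cell Ranger 7.0.1, per the file headers, and the submitters' processing notes add bcl2fastq 2.20.0 and build mm10. The 3 B cell receptor tables, deposited with counts of UMIs per contig, gave only the constant gene of each heavy chain. How cells were called is not given in the sources used here.

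Barcodes with at least 500 genes and at most 10% mitochondrial UMIs were kept, and those with the highest Scrublet scores removed, 0.8% per 1000 barcodes, 645 to 1102 per library. Cells were clustered with scanpy 1.11.5 and leidenalg 0.10.2 (2000 variable genes, 30 components, 15 neighbours, resolution 1, T cells 1.5, seed 0) without the members, the pathway list, antigen receptor segments, and mitochondrial and ribosomal protein genes. A cluster was B lineage or T at 5 UMIs per 10000 of its markers, CD4 or CD8 at a ratio of 3, Treg-like at 1 UMI per 10000 of Foxp3, and Tfh-like at 1 UMI per 10000 each of Cxcr5, Bcl6 and Tox2. A cluster lost its name where its 10 leading genes held more markers of a different class than of its own. These naming rules were set after clusters and first results were seen, and names before the last rule were kept as an alternative. Some clusters stayed unnamed, 557 to 849 cells per library, and were left out of the classes.

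UMIs were summed per library and class with exact Poisson intervals for levels, exact conditional binomial intervals for ratios, and Clopper-Pearson intervals for shares. No p-value was computed, since each group had 1 library. The ratio intervals were tested on simulated Poisson counts. These hold no spread between cells or libraries, so that the test covers counting error only. The members, the pathway list (Cd244a, Slamf8, Slamf9, Sh2d1b1, Sh2d1b2, Cd2, Fyn, Lck, Ptpn6, Ptpn11, Inpp5d, Vav1, Prkcq) and the marker lists were chosen with earlier results of these data known. Members were named in every class, pathway genes where called or where their class was described, and genes of like pattern as the 3 with the highest r. Ratios between classes and clusters, the promoters and the motifs were chosen after values were seen. Alternatives were other filters on genes per barcode and UMIs, no doublet removal, Leiden resolution 2, median-ratio size factors, another UMI total, leaving out the top cell, gating on marker UMIs and thinning.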

Additional observations from a re-analysis of the deposited data

How the results depend on the processing

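Each of the 5 comparisons rests on few called ratios, and their number changed with the processing. For isotype against saline control the 2 calls became 1 without doublet removal, 1 at Leiden resolution 2 and 0 at a minimum of 100 UMIs. For anti-CTLA-4 against isotype the 3 became 1 without doublet removal, 1 with median-ratio size factors and 6 at a minimum of 20 UMIs. For depleted isotype against isotype the 2 became 0 at a minimum of 100 UMIs. For depleted against non-depleted anti-CTLA-4 the 4 became 2 with barcodes from 200 genes, 2 without doublet removal and 2 at 100 UMIs, and between the depleted libraries the 6 became 2 at 100 UMIs. Of the called ratios that could be computed, 7 of 14 were still called without doublet removal, 12 of 17 from 200 genes, 14 of 16 at resolution 2, 15 of 17 with size factors, and 16 of 17 each with the names before the marker check (chosen after seeing the data), with the smaller UMI total and without the top cell. None turned around.

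The mean ratio of T to B cells over the 3 libraries with B cells was 0.973 for the Slamf1 level and 1.07 when cells were gated on marker UMIs, a reversal, and for Slamf7 it was 0.161 and 0.221. For shares of cells with a UMI, thinning took the T to B ratio from 1.30 to 1.04 for Slamf1, from 1.28 to 1.09 for Slamf6, from 0.241 to 0.148 for Slamf7, from 1.58 to 1.28 for Cd84, from 1.46 to 1.13 for Ly9 and from 1.56 to 1.34 for Cd48. T cells had the higher median depth in these libraries. Low UMI totals limit NK-like, Tfh-like and plasma cell-like values. No paired analysis was possible because each group had 1 library.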
